A study of Mus musculus with 6 samples.

Results

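Glutathione transferases are the enzymes that join glutathione, a small thiol peptide, to reactive compounds so that a cell can remove them. The 6 genes described here are the alpha class genes Gsta1, Gsta3 and Gsta4, the locus Gm3776 that lies beside Gsta1, the mu class gene Gstm1 and the omega class gene Gsto1. They were taken by symbol, through the GENCODE annotation of GRCm38, from the 52636 gene IDs of the matrix, and all 6 were found. They were picked because of how they behaved across Krt19 and Hopx in these same cells, so their values by those 2 genes are a description and carry no test.

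The cells were mouse alveolar type II (ATII) cells, which make surfactant and act as stem cells of the lung alveolus, sorted as live cells by Sytox blue. Per the labels all mice carried wild-type IL4Ra, the interleukin 4 receptor subunit. The groups were cultured cells of young and old mice at day 13, cultured cells of young mice at day 13, and fresh sorted cells of young and old mice at day 0, each with 1 expression library and 1 library of multiplexing tags. Culture was without serum or feeder cells and formed alveolarspheres, hollow balls of epithelium. From day 3 wells received a cytokine at 10 ng/ml or PBS, its carrier. The title calls the cytokine IL-4 while the design text prints a different interleukin number. The labels mark every library as mixed in treatment.

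Each barcode starts with 1 of 3 library tokens, and no token matches a label. They are called libraries A, B and C here, in order of first appearance, and their day, age and treatment are not known. Depth is counted in unique molecular identifiers (UMIs, each standing for 1 captured transcript). Library A held 16367 cells (median 3749 UMIs), library B 5593 cells (median 8349) and library C 14580 cells (median 3341). Each library stands alone, so no test was run and cells are not counted as replicates. Levels are UMIs per 1000000 UMIs of the group (CPM), with 95% exact Poisson intervals, and shares of cells have exact Clopper-Pearson intervals. Both cover counting error only. All 8 ATII markers reached 20 CPM in each library, and Sftpc, surfactant protein C, stood at 255076 CPM in A, 128764 in B and 116228 in C. Of 5 club markers 2 reached 20 CPM in A, 2 in B and 1 in C, and Scgb1a1 among them stood at 2503, 85.7 and 30.2 CPM. Of 5 ciliated markers 2 reached it in A, with Sec14l3 at 82.6 CPM, and 0 in B or C. The part of airway cells or their RNA in the library A levels was not tested. Of 5 fibroblast and 6 leukocyte markers none reached 20 CPM, and Pecam1 at 88.7 CPM in A was the only one of 6 endothelial markers that did. No cell held UMIs of 3 or more fibroblast, 3 or more leukocyte or 3 or more endothelial markers. Thus no cell type that should lack the transferases was there to measure free RNA. Of barcode sequences, 20 occurred in both libraries A and B, 67 in A and C, and 22 in B and C.

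In background, the alpha, mu and omega classes share the fold of a cytosolic enzyme but differ in substrate. Many transferase genes are switched on by NRF2, a transcription factor that is freed from its inhibitor KEAP1 when a cell meets oxidants or electrophiles, and that binds an antioxidant response element (ARE). Krt19 is a keratin of cells that are leaving the ATII state, and Hopx is a marker of alveolar type I (ATI) cells, the flat cells that ATII cells can become.

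Gsta4, Gsta1 and Gm3776 lie on chromosome 9 within 173015 bases (chr9:78182774-78355788, GRCm38), a stretch with 7 protein-coding genes that also holds Gsta2. All 3 are on the plus strand, Gsta4 (ENSMUSG00000032348) at chr9:78182774-78209349, Gsta1 (ENSMUSG00000074183) at chr9:78230656-78242684 and Gm3776 (ENSMUSG00000111709) at chr9:78257129-78269166. Gsta3 (ENSMUSG00000025934) is at chr1:21240589-21265661 and Gsto1 (ENSMUSG00000025068) at chr19:47854970-47864790, both on the plus strand, and Gstm1 (ENSMUSG00000058135) at chr3:108012255-108017973 on the minus strand. The promoters of Gsta1 and Gm3776 are shown because these genes had the largest folds by Krt19 among the 6 and are near copies of each other. Each run is the 250 bases before the RefSeq start (GRCm38.p6, plus strand, chr9:78230419-78230668 and chr9:78256879-78257128), and the capital marks the single base that differs, G53A counted from the first base of the Gsta1 run.
Gsta1: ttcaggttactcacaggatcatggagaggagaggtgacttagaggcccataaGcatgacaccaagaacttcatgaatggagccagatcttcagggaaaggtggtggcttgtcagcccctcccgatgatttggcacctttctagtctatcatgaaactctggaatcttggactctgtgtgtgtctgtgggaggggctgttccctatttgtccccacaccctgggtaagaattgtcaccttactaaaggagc
Gm3776: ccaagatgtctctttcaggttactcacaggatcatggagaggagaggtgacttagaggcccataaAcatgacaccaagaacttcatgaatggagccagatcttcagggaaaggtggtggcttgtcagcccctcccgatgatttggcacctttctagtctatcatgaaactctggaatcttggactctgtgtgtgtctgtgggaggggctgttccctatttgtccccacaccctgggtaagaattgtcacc
Over the 237 bases that align, 236 are the same. The runs of Gsta1 and Gsta2 are 73.3% identical over their aligned length.

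The likeness goes on through the transcripts, of which 870 of 874 aligned bases are the same in Gsta1 and Gm3776 (99.5%), while Gsta1 and Gsta2 share 97.2%. Of the 411 stretches of 90 bases (the length of the second read) in the last 500 bases of the Gsta1 transcript, 320 (77.9%) occur unchanged in Gm3776 and 6 in Gsta2. How the counting treated reads that match both genes is not given in the sources used here, so the split of UMIs between Gsta1 and Gm3776 is uncertain and the level of each may be understated.

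The promoter of Gsta3 is shown because it is the only one of the 6 windows found for 5 members (Gstm1 has 2) that holds the ARE core TGACNNNGC on either strand. The match, in capitals, starts 121 bases before the RefSeq start (GRCm38.p6, plus strand, chr1:21240335-21240584).
Gsta3: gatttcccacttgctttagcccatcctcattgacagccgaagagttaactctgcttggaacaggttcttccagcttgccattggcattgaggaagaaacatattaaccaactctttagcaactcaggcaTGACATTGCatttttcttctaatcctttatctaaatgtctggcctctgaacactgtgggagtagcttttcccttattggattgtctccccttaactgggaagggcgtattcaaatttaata
That core occurs in 10.2% of the 32851 promoter windows of the same length. The AP-1 motif TGANTCA, found in 6.75% of windows, is in no member's window, and the hypoxia core ACGTG, found in 16.6%, is in 1 of the 2 windows of Gstm1. A match describes letters and not a bound site.

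Levels of the 6 genes differed between libraries, and the intervals of library A overlapped those of B or C for none of them. How many of all genes differ between libraries in this way was not counted, so nothing is read from the lack of overlap. Gsta1, which conjugates glutathione to electrophiles, had 4 UMIs among 63658436 in A, or 0.0628 CPM (interval 0.0171 to 0.161), 19.8 CPM (18.5 to 21.1) in B and 25.4 CPM (24.1 to 26.8) in C. Gm3776 had 3 UMIs in A, 0.0471 CPM (0.00972 to 0.138), with 13.0 CPM in B and 14.1 CPM in C. Both were thus close to absent in A and low in the other 2.

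Gsto1, an omega class enzyme that also reduces dehydroascorbate, was at 3.91 CPM (3.44 to 4.43) in A, 101 CPM (98.1 to 104) in B and 76.6 CPM (74.2 to 79.0) in C. Gsta4, which acts on aldehydes made when lipids are oxidised, was at 118 CPM, 579 CPM and 514 CPM in the same order. Gstm1, the mu class member, was at 83.1, 225 and 283 CPM, and Gsta3, an alpha class enzyme known in mice for detoxifying aflatoxin, at 40.1, 83.2 and 103 CPM. Libraries differ in depth, so shares of cells with a UMI are given after each cell was thinned to 2000 UMIs, which left out 288 shallower cells of library A, 29 of B and 1289 of C.

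At that depth Gsta4 was seen in 21.0% of library A cells, 60.2% of library B cells and 58.4% of library C cells, and without thinning in 35.0%, 93.6% and 75.0%. Gsta1 was seen in 0.0124% (2 cells), 2.16% and 1.78% of thinned cells, and in 0.0244%, 3.75% and 2.26% of all cells. Gsto1 was seen in 0.721%, 16.0% and 11.9% of thinned cells. Gsta4 was thus a gene of most cells in libraries B and C, and Gsta1 a gene of few cells.

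**Figure D1:**
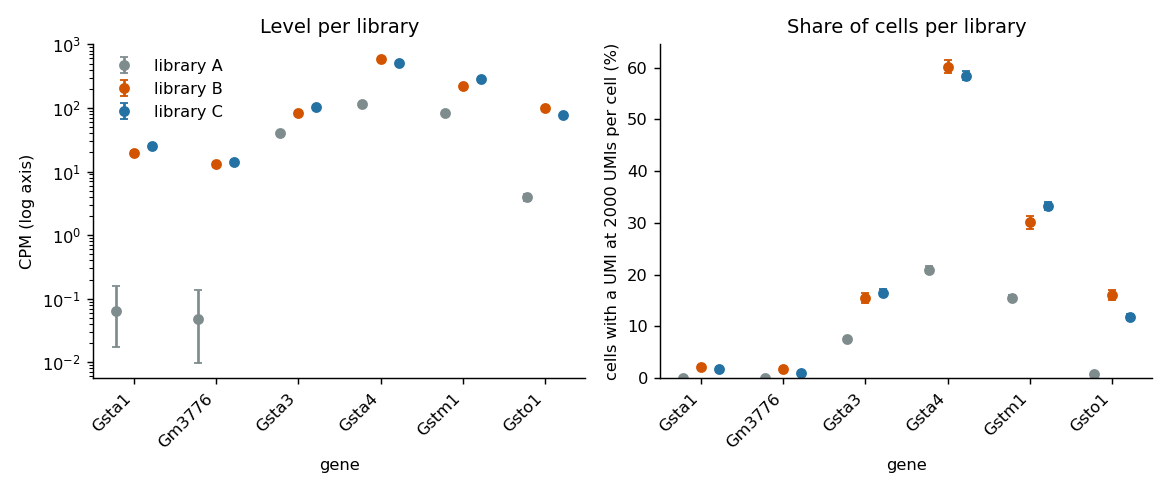
Level in CPM on a log axis (left) and share of cells with a UMI after thinning to 2000 UMIs per cell (right) for the 6 genes in libraries A, B and C; points are values of 1 library each and bars are 95% intervals of counting error. Library A lies below the other 2 for every gene, with Gsta1 at 0.0628 CPM and Gsto1 at 3.91 CPM there.

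Within libraries B and C the transcripts of Gsta1 and Gm3776 were packed into few cells. In library B the 20 cells with 10 or more Gsta1 UMIs, 0.358% of cells, held 481 of its 962 UMIs, and the highest cell held 130. In library C the 33 such cells, 0.226%, held 47.3%, with a highest cell of 52. For Gm3776 the 12 cells of B with 10 or more UMIs held 40.1% and the 16 cells of C held 33.8%.

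The other members were spread more widely. Cells with 10 or more Gsta4 UMIs held 34.5% of its UMIs in B, but were 10.5% of cells, and held 10.8% in C. For Gstm1 such cells held 21.3% in B and 16.3% in C, and for Gsto1 10.7% and 10.4%. Cells with 10 or more Gsta3 UMIs held 0.939% of its UMIs in B and 1.14% in C. A fixed cut of 10 UMIs also depends on the level of the gene. The variance of the thinned counts over their mean, which is 1 for random sampling, was 4.51 and 4.82 for Gsta1 in libraries B and C, 3.69 and 4.31 for Gm3776, 2.93 and 3.14 for Gstm1, 2.56 and 1.94 for Gsta4, 1.62 and 1.43 for Gsto1, and 1.24 and 1.39 for Gsta3. By this ratio Gsta3 was closest to 1 and Gsta1 farthest from it in both libraries. The ratio also tends to rise with the level of a gene, so it does not rank Gsta3 and Gsta4 by evenness. Gsta1 had the highest ratio although its level was below those of Gsta3, Gsta4, Gstm1 and Gsto1.

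**Figure D2:**
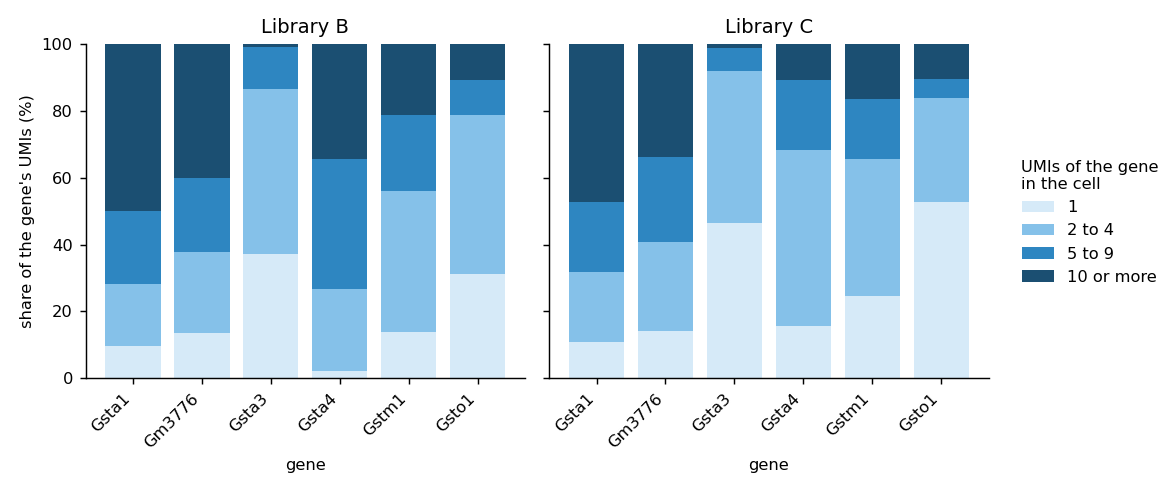
Share of each gene's UMIs (vertical axis, %) that came from cells with 1, 2 to 4, 5 to 9 or 10 or more UMIs of that gene, in libraries B and C, without thinning. The darkest block, cells with 10 or more, holds 481 of 962 Gsta1 UMIs in B and 47.3% of Gsta1 UMIs in C. In B and C it holds 34.5% and 10.8% of Gsta4 UMIs and 0.939% and 1.14% of Gsta3 UMIs.

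Cells with 2 or more Krt19 UMIs were set against cells with 0, inside each library. There were 2785 against 1353 such cells in B and 3709 against 6915 in C. All 6 genes were higher in the cells with Krt19, beside a median log2 fold over all genes of 0.00 in B and 0.05 in C. The share of all genes that were higher by any amount was not counted. A gene passes the size rule with a log2 fold of at least 1 (CPM plus 1) and at least 20 CPM in either group. Gsta1 and Gm3776 passed in B, where 1.02% of 4703 genes passed upward, and Gsta1, Gm3776 and Gsto1 passed in C, where 2.36% of 4694 did. In both libraries together 2 members passed, beside 1.01% of 4351 genes, and since the genes were picked on this contrast nothing is read from that. No member was at least 2-fold lower in Krt19 cells, beside 0% of genes in B and 0.213% in C, so nothing is read from that either. Gsta1 and Gm3776 reached 20 CPM only through the Krt19 cells.

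Gsta1 was at 36.9 CPM (34.6 to 39.3) in Krt19 cells of B, against 1.27 CPM (0.696 to 2.14, from 14 UMIs) in cells with 0, a log2 fold of 4.06. In library C it was at 82.9 CPM (78.3 to 87.8) in Krt19 cells, against 1.82 CPM (1.32 to 2.45) in cells with 0, a log2 fold of 4.89. On the ratio of counts alone, without the added 1 CPM, the 95% interval of the log2 fold was 4.10 to 5.73 in B and 5.07 to 5.98 in C, so the printed folds lie just under it. Gm3776 was at 23.7 against 1.18 CPM in B (log2 fold 3.5) and at 46.6 against 0.994 CPM in C (4.58). Krt19 cells thus held 96.2% of Gsta1 UMIs in B, where they were 49.8% of cells, and 87.7% in C, where they were 25.4%.

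Gsto1 was at 122 CPM in Krt19 cells of B, against 73.9 CPM in cells with 0 (log2 fold 0.72), and at 131 against 50.2 CPM in C (1.37). Gstm1 was at 272 against 162 CPM in B (0.75) and at 384 against 231 CPM in C (0.73). Gsta3 was at 99.3 against 62.1 CPM in B (0.67) and at 145 against 87.3 CPM in C (0.72). Gsta4 was at 695 against 452 CPM in B (0.62) and at 683 against 432 CPM in C (0.66). These 4 genes thus had Krt19 folds of 0.62 to 0.75 on the log2 scale apart from Gsto1 in C. Their intervals in Krt19 cells and in cells with 0 did not overlap. The share of all genes with such separate intervals was not counted, so nothing is read from that.

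Depth and other markers moved with the split. Krt19 cells had a median of 8518 UMIs against 7854 in B and 3481 against 3207 in C. The 8 ATII markers summed to 132508 against 157736 CPM in B and to 102941 against 138816 CPM in C, and 0 of 8 passed the size rule. Of the 9 transitional markers 6 passed upward in B and 7 in C, 6 of them in both, Krt19 itself among these. Of the ATI markers 3 of the 6 that reached 20 CPM passed upward in each library, 2 of them (Hopx and Akap5) in both, and the list summed to 1533 against 1041 CPM in B and 2926 against 1907 CPM in C. The 5 proliferation markers summed to 309 against 288 CPM in B and to 346 against 325 CPM in C, and the 5 club markers to 172 against 90.8 CPM and to 37.7 against 77.2 CPM. The part of these in the transferase values was not tested.

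The count of members past the size rule in B depended on how cells were treated. It was 5 when each cell was thinned to 2000 UMIs before Krt19 and the members were read, where 5.11% of genes passed, and Gsto1 was the member that did not, at 0.96. In C it stayed 3 after thinning, where 4.56% of genes passed. In B it was 1 without the 10 cells that held the most Gsta1, where Gm3776 stood below the minimum at 15.8 CPM in Krt19 cells with a log2 fold of 2.94 and Gsta1 had one of 3.35, beside 0.894% of genes that passed. It was 1 in B also with 1 or more Krt19 UMIs in place of 2, where 0.578% of genes did.

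Krt19 was then read in finer steps. In library B, cells with 0, 1, 2, 3, 4 and 5 or more Krt19 UMIs had Gsta1 at 1.27, 1.82, 3.17, 3.45, 24.8 and 121 CPM. In library C the same steps gave 1.82, 8.27, 17.6, 34.1, 83.5 and 292 CPM. Each step thus had a higher value than the one before in both libraries, with the first 4 steps below 4 CPM in B and only the first below 4 CPM in C. Cells of B are deeper, so a given number of Krt19 UMIs is a smaller share of the cell there; the difference between libraries was not tested.

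Gm3776 stood at 1.18, 1.82, 2.19, 1.64, 13.8 and 79.3 CPM in B and at 0.994, 4.04, 10.4, 18.7, 61.2 and 156 CPM in C. Gsta4 went over the same steps through 452, 458, 505, 536, 694 and 1106 CPM in B, and through 432, 484, 532, 614, 814 and 1048 CPM in C. Gstm1 stood at 162 CPM with 0 Krt19 UMIs and 449 CPM with 5 or more in B, and at 231 and 608 CPM in C. Gsto1 stood at 194 CPM at 5 or more Krt19 UMIs in B and at 299 CPM in C, and Gsta3 at 148 and 230 CPM. The top step, 773 cells of B and 734 of C, was the highest for all 6 genes in both libraries.

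**Figure D3:**
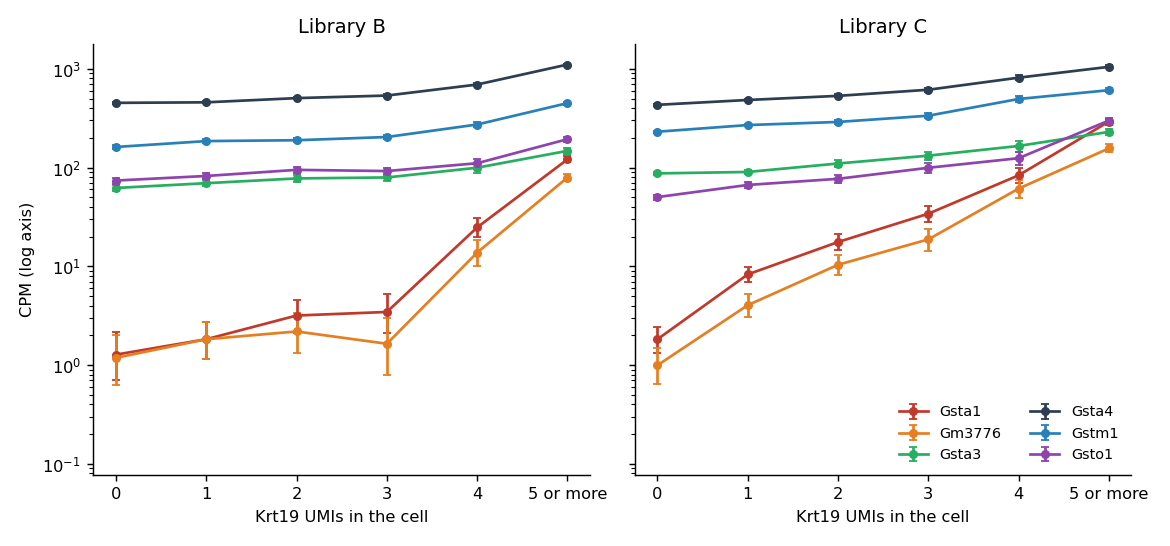
Level of each gene in CPM (log axis) in cells with 0, 1, 2, 3, 4 and 5 or more Krt19 UMIs, in libraries B and C; bars are 95% intervals of counting error. Gsta1 in B stays below 4 CPM up to 3 Krt19 UMIs and reaches 121 CPM at 5 or more, while in C it climbs from 1.82 CPM through 34.1 CPM at 3 UMIs to 292 CPM.

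Cells with at least 1 Hopx UMI were set against cells with 0, which made 1151 against 4442 cells in B and 3374 against 11206 in C. Gsta1 was at 71.0 CPM (65.6 to 76.8) in Hopx cells of B, against 8.14 CPM (7.28 to 9.08) in cells with 0, a log2 fold of 2.98. In library C it was at 57.7 CPM (53.4 to 62.4) against 16.7 CPM (15.5 to 18.0), a log2 fold of 1.73. Gm3776 was at 43.7 against 6.0 CPM in B (2.67) and at 31.3 against 9.48 CPM in C (1.62). These 2 members passed the size rule in both libraries, where 1.5% of 4720 genes in B, 2.28% of 4734 in C and 1.3% of 4374 in both passed upward. Both reached 20 CPM only through the Hopx cells, and the genes were picked on this contrast, so nothing is read from these shares. No member was at least 2-fold lower in Hopx cells, beside 0.0847% of genes in B, 1.14% in C and 0.0457% in both, so nothing is read from that either.

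The other 4 members were higher in Hopx cells by less than 2-fold. Their log2 folds in libraries B and C were 0.70 and 0.91 for Gsta3, 0.59 and 0.41 for Gsta4, 0.77 and 0.73 for Gstm1, and 0.60 and 0.83 for Gsto1. Hopx cells were shallower, with a median of 6927 UMIs against 8625 in B and 2991 against 3471.5 in C. Krt19 itself was higher in them, at 543 against 215 CPM in B and 595 against 239 CPM in C, and 4 of 9 transitional markers passed upward in both libraries. Of 6 ATI markers that reached 20 CPM 5 passed upward in both, Hopx among them, with sums of 2352 against 1087 CPM in B and 4499 against 1658 CPM in C. The ATII markers summed to 120539 against 149415 CPM in B and 112422 against 130919 CPM in C, where Sftpa1 passed downward. The proliferation markers summed to 240 against 315 CPM in B and 214 against 384 CPM in C, where Aurkb passed downward. The part of these in the transferase values was not tested. After thinning to 2000 UMIs, 4 members passed in B, where 4.27% of genes did, and 0 in C, where 2.58% did, and Gsta1 had a log2 fold of 1.41 in B and 0.81 in C.

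Krt19 and Hopx were then crossed. Among cells with 2 or more Krt19 UMIs, Gsta1 was at 102 CPM (94.2 to 110) with Hopx, against 16.3 CPM (14.5 to 18.2) without it, in B, a log2 fold of 2.58. In library C it was at 112 CPM (103 to 121) with Hopx, against 67.1 CPM (61.9 to 72.6) without, a log2 fold of 0.73. Gm3776 was at 62.4 against 11.5 CPM in B (2.34) and at 60.5 against 39.0 CPM in C (0.62). Inside Krt19 cells 2 members passed the size rule by Hopx in B, where 2% of 4741 genes passed. In C 0 members passed, where 1.73% of 4811 genes did, and whether the libraries differ in this was not tested. In B both genes reached 20 CPM only through the Hopx cells. The genes were picked on Krt19 and Hopx, so nothing is read from these counts. Krt19 was itself unequal inside the class, at 777 against 382 CPM in B and at 1151 against 754 CPM in C.

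Among cells with no Hopx UMI, Gsta1 was at 16.3 CPM with 2 or more Krt19 UMIs, against 0.515 CPM with 0, in B, both below the minimum of 20 CPM. In library C it was at 67.1 CPM against 0.963 CPM, a log2 fold of 5.12. Gm3776 was at 39.0 against 0.578 CPM there (4.66) and Gsto1 at 112 against 47.7 CPM (1.22). These 3 passed in C, where 1.49% of 4626 genes did, and 0 members passed in B, where 0.472% of 4661 did. In C Gsta1 and Gm3776 reached 20 CPM only through the Krt19 cells. Since the genes were picked on Krt19 and Hopx, nothing is read from these counts either. Cells with Hopx and 0 Krt19 UMIs had Gsta1 at 7.05 CPM in B, from 9 UMIs, and at 7.11 CPM in C, from 24 UMIs.

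In C the order of the mixed classes by level was not the same for every member, and the differences in order were not tested. In Hopx cells with 0 Krt19 UMIs Gsta3 was at 136 CPM (124.3 to 149.5), against 117 CPM (110.3 to 124.4) in Krt19 cells without Hopx. The Gsta3 intervals overlapped at their edges. Gstm1 was at 353 CPM (333 to 374) in the first of these classes and 342 CPM (330 to 354) in the second, so its intervals overlapped too. Gsta4 was at 487 CPM in the first and 632 CPM in the second, and Gsto1 at 66.0 and 112 CPM. In library B, Gstm1 was at 154 CPM (134 to 177) in Hopx cells with 0 Krt19 UMIs. Cells with neither had 163 CPM (155 to 171), which made a log2 fold by Hopx of -0.07. On the ratio of counts its interval was -0.30 to 0.14. In library C the same contrast was 353 against 211 CPM, a log2 fold of 0.74 (0.65 to 0.84). Whether the libraries differ in this was not tested.

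**Figure D4:**
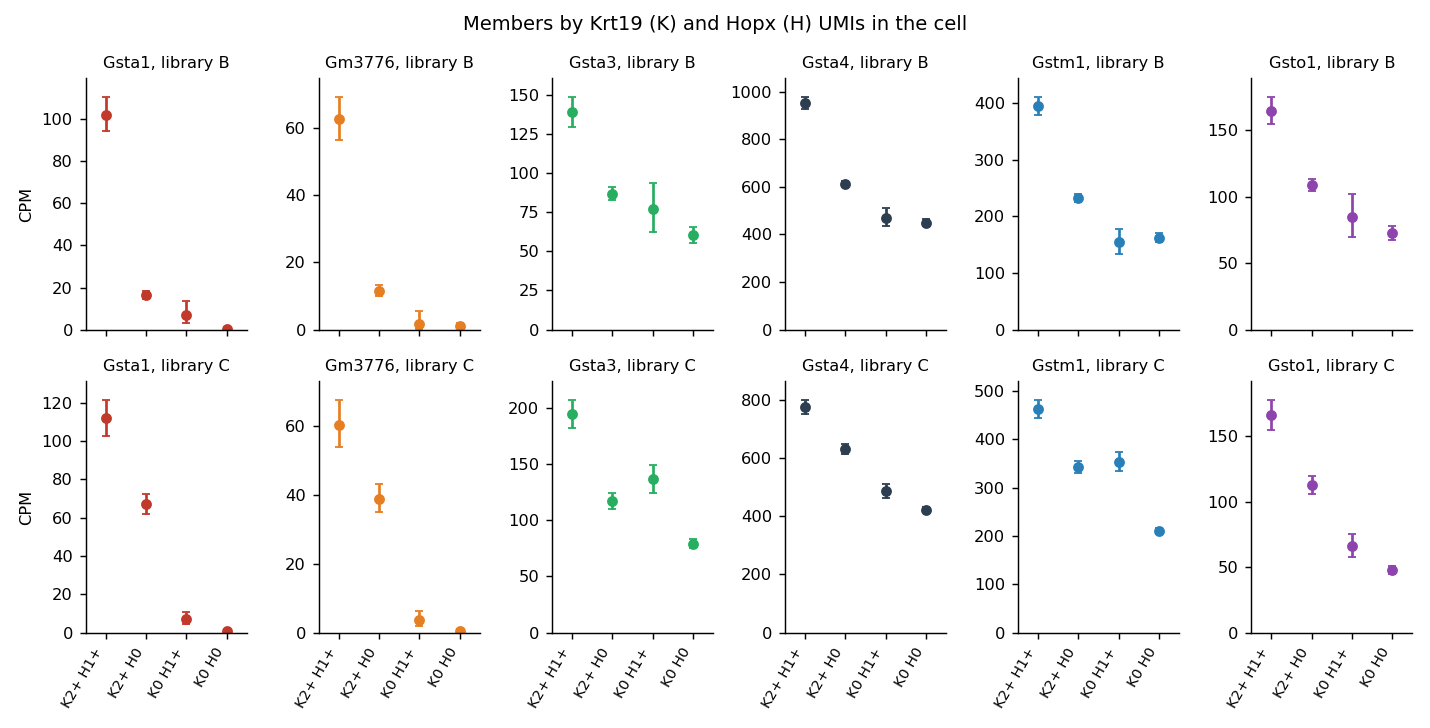
Level of each gene in CPM in cells split by Krt19 (K2+ is 2 or more UMIs, K0 is 0) and Hopx (H1+ is 1 or more, H0 is 0), for library B above and library C below; each panel has its own axis from 0, and bars are 95% intervals of counting error. Gsta1 stands at 102 and 16.3 CPM in the 2 Krt19 classes of B and at 112 and 67.1 CPM in those of C, and below 8 CPM in every class with 0 Krt19 UMIs.

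On and off in single cells were read after thinning to 2000 UMIs. A cell of B held UMIs of 1.26 members on average, of C 1.23 and of library A 0.449. At least 4 of the 6 members were seen in 2.79% of library B cells (155 cells, 2.37 to 3.25%), 2.52% of library C cells (335 cells, 2.26 to 2.80%) and 0.0124% of library A cells (2 cells). With 2 or more Krt19 UMIs the share was 4.68% in B, against 0.674% with 0, and in C it was 6.26% against 0.980%. All 6 members were seen in 15 cells of B and 34 of C.

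The other members were seen in a larger share of cells with Gsta1 than of cells without it. The same shares were not counted over all genes, so nothing particular to the members is read from them. Gm3776 was found in 42.5% of library B cells with Gsta1 (51 of 120), against 0.863% of cells without it, and in 41.1% of library C cells with Gsta1 (97 of 236), against 0.360%. How the counting treated reads that these near copies share is not given in the sources used here, and its part in these shares was not tested. Gstm1, on another chromosome, was found in 79.2% of cells with Gsta1 against 29.0% of cells without in B, and in 77.5% against 32.5% in C. Gsto1 was found in 45% against 15.4% in B and in 48.7% against 11.2% in C. Gsta3 was found in 47.5% against 14.8% and in 53.0% against 15.9%, and Gsta4 in 96.7% against 59.4% and in 93.6% against 57.8%, in libraries B and C.

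The same was seen among cells with 2 or more Krt19 UMIs alone, again without a count over all genes. Gstm1 was found there in 80.5% of cells with Gsta1, against 32.6% of cells without it, in B, and in 79.4% against 35.3% in C. Gsto1 was found in 46.0% against 16.8% in B and in 52.8% against 15.8% in C. Cells with 2 or more Krt19 UMIs still differ among themselves in Krt19, and the shares were not compared at a matched Krt19 level.

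To describe those cells, ones with 2 or more UMIs of Gsta1 and Gm3776 together were set against ones with 0, a split chosen after the values were seen. It gave 167 against 5320 cells in B (2.99% of cells in the first) and 225 against 14184 in C (1.54%). The 2 genes that make the split say nothing of it. Gstm1 was at 1449 CPM in the first cells against 184 CPM in B (log2 fold 2.97) and at 2031 against 241 CPM in C (3.07). Gsta4 was at 2986 against 497 CPM in B (2.58) and at 2653 against 463 CPM in C (2.52). Gsto1 was at 507 against 89.1 CPM in B (2.49) and at 795 against 61.3 CPM in C (3.67), and Gsta3 at 339 against 74.4 CPM (2.17) and at 535 against 92.6 CPM (2.52). All 4 passed the size rule in both libraries, where 7.95% of 4957 genes in B and 7.22% of 4985 in C passed upward.

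These folds were larger than those by Krt19 for each of the 4 genes in both libraries. Larger folds were also more common over all genes. By this split 7.95% of genes passed upward in B, against 1.02% by Krt19, and 7.22% against 2.36% in C. The split also takes far fewer cells, so nothing about the 4 genes is read from the larger folds. The cells with Gsta1 or Gm3776 were mostly Krt19 cells: 94.0% of them in B and 79.1% in C had 2 or more Krt19 UMIs, against 47.7% in B and 24.1% in C of cells with 0. Hopx was seen in 59.3% against 19.2% of cells in B and in 45.8% against 22.5% in C. Median depth was 6642 against 8433.5 UMIs in B and 3967 against 3331 in C. All 8 ATII markers passed downward in each library, as did 6.74% of genes in B and 5.28% in C, and they summed to 45638 against 147545 CPM in B and 43931 against 129232 CPM in C. Of 9 transitional markers 8 passed upward in both libraries, among them Sprr1a, at 516 against 45.2 CPM in B and 365 against 13.6 CPM in C. Of the ATI markers 5 of 6 passed upward in B and 4 of 7 in C, 3 of them (Akap5, Clic5 and Emp2) in both. Ager and Hopx passed in B and not in C. Ager was seen in 84.4% against 43.7% of cells in B and 80.4% against 59.4% in C. The proliferation markers summed to 173 against 306 CPM in B and 150.04 against 354 CPM in C, with 1 of 4 passing downward in B and 4 of 5 in C. Sftpc alone stood at 41480 against 131849 CPM in B and 40987 against 118217 CPM in C, and since CPM is a share of all UMIs, its part in the other folds was not tested, nor was that of the marker lists.

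A list of 42 genes of glutathione use and the NRF2 response was made with results of these data known. Of the 32 that reached 20 CPM in both libraries, 4 passed upward by Krt19 in both, beside 1.01% of 4351 genes. Downward 0 passed, beside 0% of all genes, so nothing is read from that. Over that list the median log2 fold by Krt19 was 0.44 in B and 0.45 in C, beside 0.00 and 0.05 over all genes. Hmox1, heme oxygenase 1, was at 286 against 71.7 CPM in B (1.98) and at 317 against 52.8 CPM in C (2.56). Esd, which hydrolyses S-formylglutathione, was at 884 against 407 CPM (1.12) and at 907 against 360 CPM (1.33). Gclm, the modifier subunit of the enzyme that starts glutathione synthesis, was at 255 against 121 CPM (1.07) and at 256 against 94.9 CPM (1.42). Gss, glutathione synthetase, was at 77.8 against 38.4 CPM (1.0, at the edge of the rule) and at 73.8 against 25.6 CPM (1.49). By Hopx the list had 1 gene past the rule in both libraries, Hmox1, at 349 against 150 CPM in B (1.22) and at 252 against 100 CPM in C (1.32). Of all genes 1.3% of 4374 passed upward by Hopx in both, so nothing is read from a count of 1.

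The same list was read in cells with Gsta1 or Gm3776, where its median log2 fold was 1.14 in B and 1.48 in C, beside 0.05 and 0.08 over all genes. In library B 20 of 35 genes passed upward, beside 7.95% of all genes, and in C 26 of 36, beside 7.22%, with 0 downward in either. Of the 34 that reached 20 CPM in both libraries 18 passed upward in both, beside 5.23% of 4574 genes. The split was chosen after the values were seen, so these counts are a description. Nqo1, a quinone reductase and a textbook NRF2 target, was at 41.5 against 2.79 CPM in B (3.49) and at 63.1 against 4.43 CPM in C (3.56). Nqo1 reached 20 CPM only through the cells with Gsta1 or Gm3776. Srxn1, sulfiredoxin, was at 159 against 24.4 CPM (2.66) and at 176 against 24.5 CPM (2.79). Gclm was at 876 against 169 CPM (2.37) and at 963 against 124 CPM (2.94), and Gclc, the catalytic subunit, at 806 against 357 CPM (1.17) and at 921 against 257 CPM (1.84). Nfe2l2, which encodes NRF2 itself, was at 418 against 195 CPM (1.10) and at 672 against 231 CPM (1.54), and Keap1 at 34.2 against 40.9 CPM (-0.25) and at 56.9 against 42.9 CPM (0.40).

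Other glutathione transferases had members on both sides of 0. Of 23 measured, 0 of the 11 that reached 20 CPM in both libraries passed by Krt19, with a median log2 fold of -0.06 in B and -0.16 in C. Of all genes 1.01% of 4351 passed upward by Krt19 in both and 0% downward, so nothing is read from the 0. In cells with Gsta1 or Gm3776, 4 of 15 passed upward in both libraries and 1 downward, beside 5.23% and 3.21% of all genes. Gsta2 and Gstm3, among those 4, reached 20 CPM only through these cells. The split was also chosen after the values were seen, so nothing is read from these counts. Gsta2, on chromosome 9 near Gsta1, was at 146 against 6.75 CPM in B (4.24) and at 153 against 4.58 CPM in C (4.79). Of the 411 stretches of 90 bases in its last 500 bases, 6 occur in Gsta1, 6 in Gm3776 and 37 in the neighbour Gm10639. That is fewer than the 320 of Gsta1 found in Gm3776, but how the counting treated reads that match more than 1 gene is not given. Gstm2, a mu class gene, was at 109 against 49.1 CPM (1.13) and at 254 against 64.8 CPM (1.95), Gstm3 at 20.3 against 4.63 CPM (1.92) and at 30.0 against 4.41 CPM (2.52), and Mgst3, a microsomal enzyme, at 372 against 171 CPM (1.11) and at 441 against 194 CPM (1.18). Gstp3, a pi class gene, was lower, at 23.6 against 58.4 CPM (-1.27) and at 30.0 against 64.0 CPM (-1.07). Mgst1 was at 806 against 765 CPM (0.07) and at 905 against 749 CPM (0.27).

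**Figure D5:**
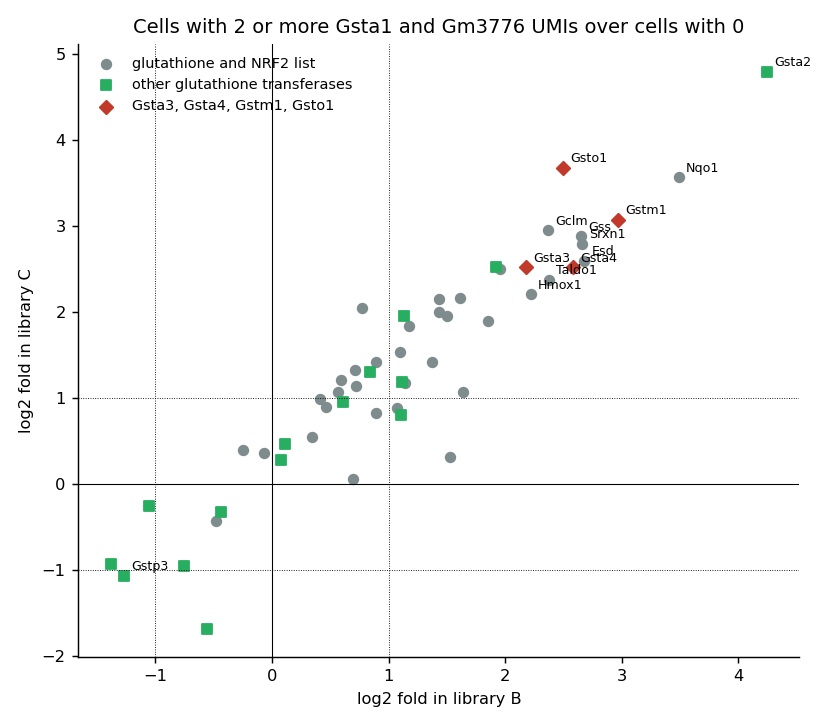
Log2 fold of cells with 2 or more Gsta1 and Gm3776 UMIs over cells with 0, in library B (horizontal) and library C (vertical), for 4 members, the other glutathione transferases and the glutathione and NRF2 list, genes with at least 20 CPM in both libraries; dotted lines mark a log2 fold of 1 in either direction. Gsto1 lies at 2.49 and 3.67, Nqo1 at 3.49 and 3.56, Gsta2 at 4.24 and 4.79 and Gstp3 at -1.27 and -1.07.

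The genes whose course was most like each member's were named by Pearson's r of log2 CPM over 12 classes of cells (2 libraries, Krt19 0, 1 or 2 and more, Hopx 0 or 1 and more), centred on each library, among 4138 genes. The classes share libraries and their cells, so r is a description. For Gsta1 they were Mt2, Esd and Srxn1 (0.97 each). For Gm3776 they were S100a6 and Selenbp1 (0.98 each) and Mt2 (0.97). For Gsta4 they included Taldo1 (0.99) and Tnfrsf12a (0.98), and for Gsto1 they were Ftl1, Aldoa and Bsg (0.998, 0.995 and 0.993). For Gsta3 they were Cdkn2b, Tpt1 and Serpinb6a (0.99 each), and for Gstm1 they included Atxn10 and F11r (0.98 each). Gsta1 and Gm3776 had an r of 0.97 with each other, and Gsta1 had 0.95 with Gsto1, 0.93 with Gsta4, 0.86 with Gsta3 and 0.85 with Gstm1.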

How the data were processed

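The authors deposited 1 matrix of whole-number UMI counts per gene and barcode, with no normalization. Per the labels' protocols, 10x 3 prime libraries were read on a NovaSeq with a second read of 90 bases. The submitters' processing notes name bcl2fastq, Cell Ranger 6.0.1 and the builds GRCm38 and mm10. Cell calling and doublet removal are not given in the sources used here, and no doublet caller was run. Tag libraries were not analysed here.

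IDs were named from GENCODE (52489 of 52636, with 147 unnamed holding 0.00981% of UMIs). Barcodes under 1000 UMIs or 500 genes, or with over 15% of UMIs on the 37 mitochondrial genes, were dropped, leaving 36540 of 36584 with 165664934 UMIs between them. Counts were summed over cells of a class and scaled to CPM. Folds are log2 of CPM plus 1; their intervals, computed on the ratio of counts, have no pseudocount. Genes that define a split were left out of its share of all genes. Zero counts allow up to 3 counts. No sample was mapped to a library token, so no comparison of age, treatment or day was made and no paired or replicate test exists.

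The members and gene lists were chosen with earlier results of these data known. The text names the 6 members, genes of the lists that pass the size rule in both libraries, and for each member the 3 genes with the highest r, of which 1 for Gsta4 and 1 for Gstm1 are not reported here. In the split by Gsta1 and Gm3776, chosen after the values were seen, only some of the passing genes are named. Keap1, Mgst1, Sprr1a, Sftpc, Pecam1, Scgb1a1 and Sec14l3 were added after their values were seen. Scripts were tested on simulated data. Software was Python 3.11.15, numpy 2.4.6, scipy 1.17.1, pandas 2.3.3, Biopython 1.88, matplotlib 3.10.9 and, for TMM factors, edgeR 4.0.16 in R 4.3.3. The closing section gives the effect of 10 other settings for Krt19 and 8 for Hopx, beside the 2 added later.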

Additional observations from a re-analysis of the deposited data

How the results depend on the processing

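No paired analysis was possible because each library is the only one of its group. All 264 recomputed log2 folds of the 6 members by Krt19 or Hopx stayed above 0, but 111 of the 264 lay outside the counting interval of the value reported, and 13 of 122 recomputed counts moved by over 1.5 times. Gsta1 by Krt19 ranged from 2.74 (pseudocount of 5) to 4.72 (thinned) in library B and from 3.69 to 5.66 in C. By Hopx it ranged from 1.41 (thinned) to 3.26 in B and from 0.81 (thinned) to 1.94 in C. With 1 or more Krt19 UMIs, 1 member passed in library B (0.578% of all genes), 1 in both libraries and 1 gene of the glutathione and NRF2 list (0.513% in both). With cells thinned to 2000 UMIs, 5 members passed by Krt19 in library B (5.11% of all genes, and 1.02% without thinning), 9 genes of that list and 1 other transferase in both libraries (3.36%), while by Hopx 4 members passed in library B (4.27%), 0 in library C (2.58%) and 0 in both (2.01%). With 2 or more Hopx UMIs 4 members passed in library B (5.35%). Without the 10 cells with the most Gsta1, a setting added after seeing the data, 1 member passed by Krt19 in library B (0.894%) and 1 in both (0.876%). With no minimum CPM 1 other transferase, Gsta2, passed in both (0.424% of 20503 genes). The cause of these changes was not tested. Leaving out the 218 cells whose barcode occurs in another library, also added later, changed no count of members. Scaling moved 31 of 54 recomputed library levels beyond their counting interval, and thinning moved 32 of 36 recomputed shares of cells. Gsta1 and Gm3776 rest on 4 and 3 UMIs in library A, and on 14 and 13 in library B cells without Krt19, so depth limits those levels.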
